A study of Saccharomyces cerevisiae with 10 samples.

Results

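AGG-QC and AGG-OE are strains of the budding yeast Saccharomyces cerevisiae S288C that each carried an extra plasmid gene for an arginine tRNA reading the codon AGG, and they differed in which tRNA gene that was. In AGG-QC it was tR(UCU)B with its anticodon changed to CCU by site-directed mutagenesis, so that the body of one arginine tRNA was joined to the anticodon of another. In AGG-OE it was tR(CCU)J, which has the CCU anticodon by nature. Both genes sat on pRS426, a URA-marked 2-micron plasmid, in an otherwise wild-type background, and the comparison asks what differs between the strains when the anticodon is shared and the rest of the tRNA is not. WT-URA carried pRS426, and its labels name no added tRNA gene, while for WT and for ACA-K, in which 3 of the 4 tT(UGU) genes for a threonine tRNA were deleted, no such plasmid is named. Cultures were filtered at the same optical density and frozen in liquid nitrogen. AGG-OE was transformed under selection for the URA marker. The study names rich medium for a yeast dataset without saying which strains it covers, and the labels give none, so that medium and plasmid cannot be told apart where WT and ACA-K stand beside the plasmid strains. The labels do not say whether a strain was a single transformant, and these libraries do not measure tRNA levels. The study reported many-fold overexpression of the CCU tRNA in AGG-OE. For AGG-QC it reported an amount of charged CCU tRNA similar to wild-type. The amount and the body of the tRNA therefore cannot be told apart in this comparison.

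With a single footprint library and a single mRNA library per strain, 4 of the 10 libraries of the series enter this comparison, and no value has a replicate error. Genes were compared when they held at least 2 to the power of 7 footprints in both strains, which left 4126 of the 5056 genes listed in both tables without URA3, and of the 5373 listed in any strain. CNE1, which had exactly this minimum in AGG-QC and 226 footprints in AGG-OE, lay just inside, and TSA2, with 147 in AGG-QC and 127 in AGG-OE, just outside. Of the genes listed for only 1 of the 2 strains, 154 were in the AGG-QC table and 37 in the AGG-OE table. Levels are given per 1000000 of each strain's total over the 5056 genes, as FPM for footprints and MPM for mRNA signal, and differences as log2 of AGG-QC over AGG-OE. In a bulk culture, a difference in some of the cells and a smaller one in all of them cannot be told apart. Without replicates there is no test across genes, and "higher" or "lower" describes these libraries. A 95% interval on a footprint ratio is exact (Clopper-Pearson) and covers counting error only.

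Ribosome profiling sequences the mRNA fragments that ribosomes shield from RNase I, so footprints on a gene follow both the amount of its mRNA and how densely ribosomes occupy it. Footprints divided by mRNA, often called translation efficiency or TE, separate the second from the first. A tRNA is recognised by its synthetase and decoded on the ribosome through its anticodon and through the rest of its body, and arginine has several codons in yeast, of which AGA is the most used and AGG is read by the rare CCU tRNA. Yeast makes arginine through the ARG genes and CPA1, among others, and breaks it down through CAR1 and CAR2. GCN4, the activator of amino acid biosynthesis genes, is itself controlled by upstream reading frames that hold back its translation when uncharged tRNA is scarce.

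The AGG-QC libraries held 6011287 footprints and 97140732 units of mRNA signal, against 9127829 footprints and 78347312 units in AGG-OE. AGG-QC thus had the fewest footprints of the 5 strains, which ran up to 29706058 in WT, with a median of 344 footprints per listed gene against 474 in AGG-OE. URA3, the orotidine phosphate decarboxylase gene on the plasmid, was listed for the 3 plasmid strains and not for WT or ACA-K. It held 18950 footprints in AGG-QC, 60442 in AGG-OE and 137431 in WT-URA. Scaled to the totals, URA3 was lower in AGG-QC by 1.07 on the log2 scale in footprints (interval -1.10 to -1.05) and by 1.22 in mRNA. STE2, the receptor of MATa cells, had between 2550 and 8476 footprints in every strain, while STE3, its counterpart in MATalpha cells, was listed with only 33 footprints in AGG-QC and was not listed for AGG-OE.

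Footprints, mRNA and footprints per mRNA each kept nearly the same order of genes in both strains. Across the 4126 genes, which are not independent replicates, the log2 levels had a Pearson r of 0.973 for footprints, 0.945 for mRNA and 0.953 for footprints per mRNA, with Spearman rho of 0.962, 0.920 and 0.944. The log2 ratios had a standard deviation of 0.39 for footprints, 0.41 for mRNA and 0.25 for footprints per mRNA. The medians of the log2 ratios were 0.18 for footprints, 0.07 for mRNA and 0.10 for footprints per mRNA, and the 10 most abundant genes took 9.67% of the mRNA signal in AGG-QC and 10.2% in AGG-OE. A typical gene therefore stands at these medians and not at 0, and each list below is read against them.

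In footprints 100 genes were 2-fold or more apart (2.42%), of which 93 were higher in AGG-QC (2.25%) and 7 were lower (0.17%). Of the higher genes 63, and of the lower 5, had a counting interval that lay wholly past 2-fold. With the median ratio set to 1, the split was 59 higher and 26 lower, so the excess of higher genes was smaller but remained. The minimum is a raw count, however, and AGG-QC had fewer footprints. It therefore leaves out genes low in AGG-QC more readily than genes low in AGG-OE. This tilts both splits towards higher genes, by an amount that was not tested. At 1.5-fold, 361 genes were higher (8.75%) and 122 lower (2.96%), or 11.7% together. In mRNA 132 genes were 2-fold apart (3.2%), with 97 higher (2.35%) and 35 lower (0.848%). At 1.5-fold the mRNA of 326 genes was higher (7.9%) and that of 207 lower (5.02%), or 12.9% together.

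In footprints per mRNA far fewer genes were apart. Only 5 passed 2-fold (0.121%), with 2 higher (0.0485%) and 3 lower (0.0727%), and with the median ratio set to 1 the split was 1 higher and 7 lower. At 1.5-fold 108 genes were higher (2.62%) and 31 lower (0.751%), or 3.37% together.

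Genes that differed did so in both assays. The footprint ratio and the mRNA ratio correlated across genes with r of 0.799 and rho of 0.682. All 93 genes higher in footprints had an mRNA ratio above 1, 74 of them past 2-fold, with a median log2 mRNA ratio of 1.29. All 7 lower genes had an mRNA ratio below 1, 5 of them past 2-fold. For 3987 of the 4126 genes (96.6%) the footprints per mRNA of AGG-QC and AGG-OE lay within 1.5-fold of each other.

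**Figure D1:**
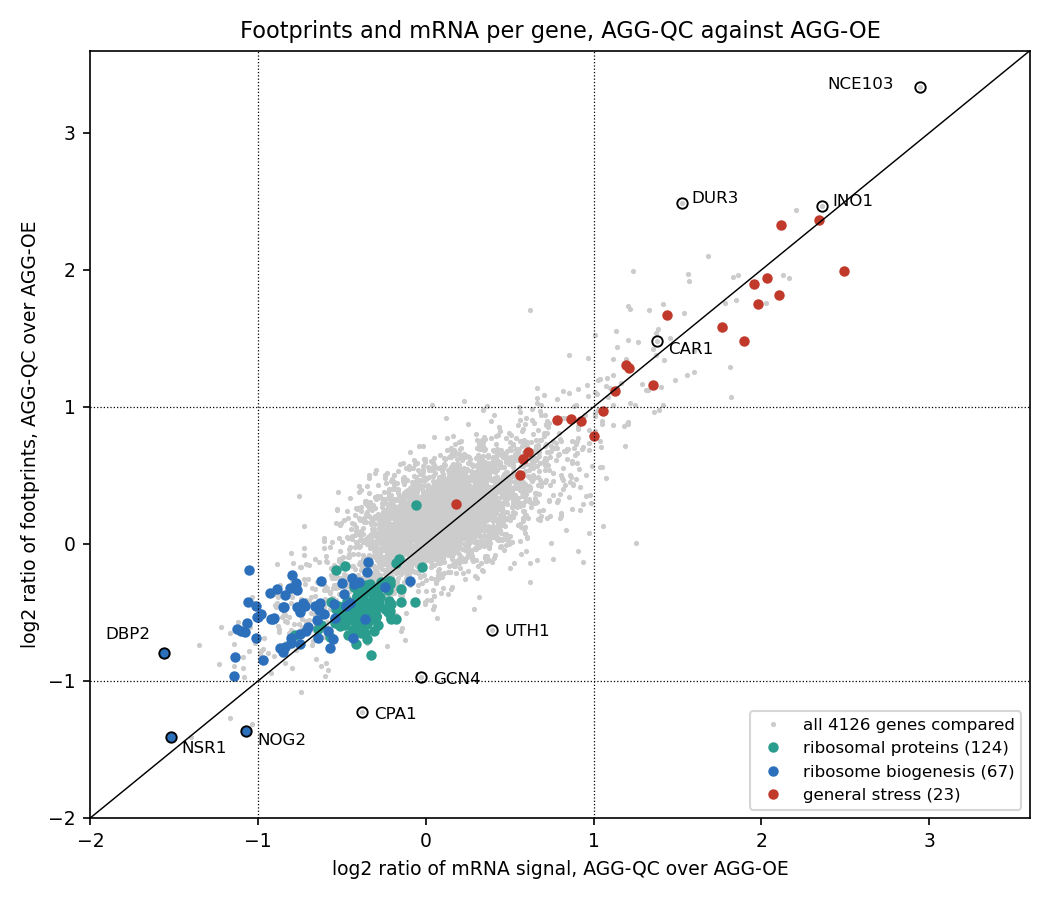
Each point is 1 gene, with its log2 ratio of mRNA signal, AGG-QC over AGG-OE, on the x axis and its log2 ratio of footprints on the y axis; dotted lines mark 2-fold and the solid line equal ratios. The 23 general stress genes lie at the upper right, the 124 ribosomal protein genes, except RPL15B, and the 67 ribosome biogenesis genes at the lower left, and GCN4, CPA1 and UTH1 fall below the line of equal ratios.

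The 35 genes that were 2-fold lower in mRNA matched less closely between the assays. Their footprints were lower too, but less so, with a median log2 footprint ratio of -0.69, and only 5 of them passed 2-fold in footprints. Their median log2 ratio of footprints per mRNA was 0.44, above the 0.10 of all genes. Footprints per mRNA divides by the same mRNA that picked these genes, a choice that tends to raise it, so the value is a description. The 97 genes 2-fold higher in mRNA had a median of -0.06, and 74 of them passed 2-fold in footprints. For the 7 genes 2-fold lower in footprints the median was -0.28. DBP2, an RNA helicase, was the lowest of all in mRNA, with 106 MPM in AGG-QC and 313 in AGG-OE (log2 -1.56), but had 228 FPM in AGG-QC and 395 in AGG-OE (log2 -0.79). URA7, a CTP synthase, showed the same pattern, with log2 ratios of -1.35 in mRNA and -0.74 in footprints.

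The gene furthest apart was NCE103, which encodes carbonic anhydrase, the enzyme that turns carbon dioxide into bicarbonate. It had 2100 footprints in AGG-QC and 315 in AGG-OE, or 351 FPM in AGG-QC and 34.8 FPM in AGG-OE (log2 3.34, interval 3.17 to 3.51). Its mRNA signal was 528 MPM in AGG-QC and 68.6 in AGG-OE (log2 2.94), and footprints per mRNA differed by 0.39 on the log2 scale. The ratio held along the gene, at 3.35, 3.56 and 3.07 for the footprints of its first, middle and last stretch of equal length. WT-URA had 36.1 FPM of NCE103, next to AGG-OE, while WT had 116 and ACA-K 399, so AGG-QC stood apart from the other plasmid strains and not from ACA-K.

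The next highest genes were of mixed role, and several serve nitrogen uptake or stress defence. DUR3, a urea and polyamine permease, had 119 FPM in AGG-QC and 21.2 in AGG-OE (log2 2.49, interval 2.26 to 2.72), with a log2 mRNA ratio of 1.52. MEP2, an ammonium permease, had 196 in AGG-QC and 45.8 in AGG-OE (log2 2.10). CTT1, the cytosolic catalase, had 113 in AGG-QC and 22.5 in AGG-OE (log2 2.33). In all 3 of these genes WT-URA lay between the strains, at 49.1, 68.2 and 45.0 FPM, and WT and ACA-K were far below at 1.43 to 3.92.

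The other genes among the 10 highest were BDH2, an alcohol dehydrogenase family member, DDR2, a stress-induced protein, CIN5, a transcription factor of the Yap family, TMA10 and the uncharacterised YLR177W. Their log2 footprint ratios ran from 1.97 for CIN5 to 2.43 for BDH2. BDH2 had 122 FPM in AGG-QC, 22.6 in AGG-OE and 35.3 in WT-URA, and CIN5 had 99.4 in AGG-QC, 25.4 in AGG-OE and 41.5 in WT-URA. DDR2 was the 1 of them whose mRNA differed more than its footprints, with log2 ratios of 2.49 in mRNA and 1.99 in footprints.

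INO1, inositol phosphate synthase, had another order of strains. It had 692 FPM in AGG-QC and 125 in AGG-OE (log2 2.46, interval 2.37 to 2.56), and 595 MPM in AGG-QC and 116 MPM in AGG-OE. WT-URA, at 693 FPM, matched AGG-QC, so here it was AGG-OE that stood apart from the other plasmid strains. ITR1, the main inositol transporter, went the same way with a smaller difference, at 1367 FPM in AGG-QC, 917 in AGG-OE and 1502 in WT-URA. Over the 17 genes compared of the inositol and phospholipid list the median log2 footprint ratio was 0.40, against 0.18 over all genes. INO1 alone of the 17 passed 2-fold (2.25% higher over all genes).

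**Figure D2:**
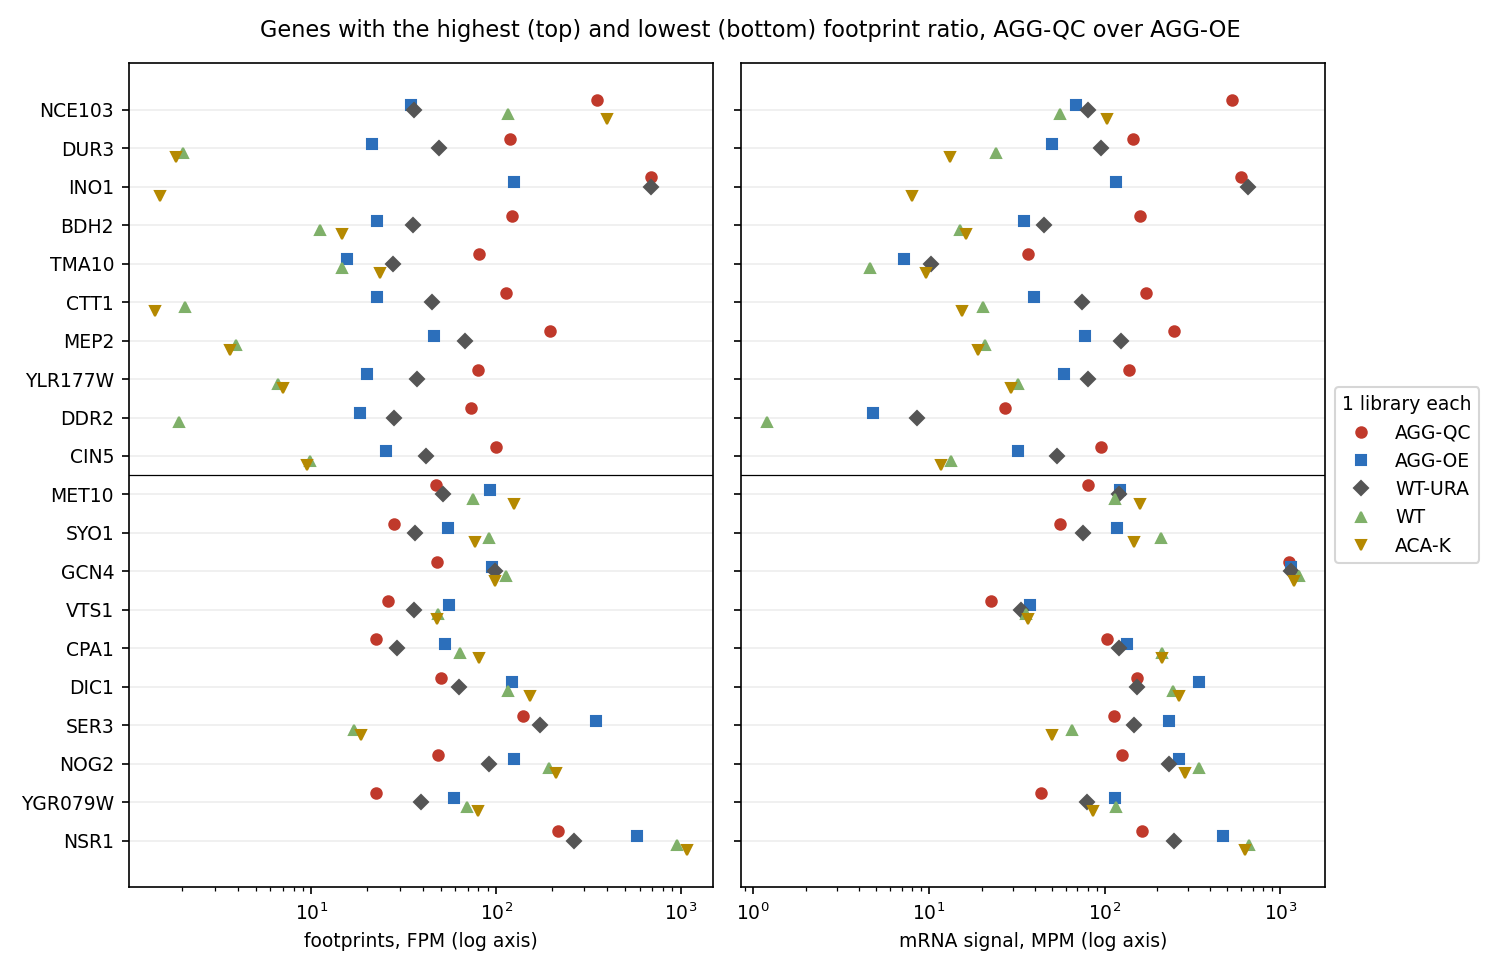
Footprints in FPM (left) and mRNA signal in MPM (right), on log axes, for the 10 genes with the highest and the 10 with the lowest footprint ratio of AGG-QC over AGG-OE; each symbol is the single library of 1 strain. NCE103 is high in AGG-QC and ACA-K, INO1 is low in AGG-OE among the plasmid strains, and GCN4 is low in AGG-QC in footprints but alike in all 5 strains in mRNA.

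WT-URA lay between AGG-QC and AGG-OE for most of the genes that differed. Of the 93 genes higher in footprints, WT-URA was between the strains for 91 and above both for 2. For comparison, it lay between them for 2264 of the 4119 genes listed for WT-URA as well. Genes picked for being far apart leave more room between them, so the counts are a description and not a result about these genes. The 93 genes had a median log2 footprint ratio of 0.75 for AGG-QC over WT-URA and of -0.60 for AGG-OE over WT-URA, and both of those share the WT-URA library.

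The 7 genes 2-fold lower in footprints had no single role. They were NSR1 and NOG2 of ribosome assembly and CPA1 of arginine synthesis and, beside these, SER3, DIC1, VTS1 and the uncharacterised YGR079W. SER3, a phosphoglycerate dehydrogenase of serine synthesis, had 139 FPM in AGG-QC, 347 in AGG-OE and 172 in WT-URA (log2 -1.32, interval -1.43 to -1.21), and its gene overlaps the noncoding RNA gene SRG1. DIC1, the mitochondrial dicarboxylate carrier, had 50.2 FPM in AGG-QC, 121 in AGG-OE and 62.6 in WT-URA (log2 -1.27, interval -1.46 to -1.09). VTS1, an RNA-binding protein, had 26.1 FPM in AGG-QC and 55.3 in AGG-OE, and YGR079W 22.3 in AGG-QC and 59.0 in AGG-OE. WT-URA lay between the strains for all 7 in footprints, and nearer AGG-QC for 5 (2086 of 4119 over all genes). In mRNA it was nearer AGG-QC for 3 of the 7 and nearer AGG-OE for 4.

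Genes of the general stress response were higher in AGG-QC as a group. This program, driven by the activators Msn2 and Msn4, covers catalase, small heat shock proteins and the synthesis of the reserve carbohydrates trehalose and glycogen. Of the 27 genes in the list 25 were listed in both strains and 23 were compared, and all 23 lay above the all-gene median in footprints and in mRNA. In footprints 14 of 23 were 2-fold higher and 0 lower (2.25% and 0.17% over all genes), and in mRNA 16 were higher (2.35% over all genes) and 0 lower. The median log2 ratio was 1.28 in footprints and 1.21 in mRNA, the highest of the 43 gene lists in each, and -0.03 in footprints per mRNA.

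Values of single members show the size of this difference. HSP12, a small membrane-associated heat shock protein, had 658 FPM in AGG-QC, 171 in AGG-OE, 206 in WT-URA, 9.94 in WT and 26.6 in ACA-K. GLC3, the glycogen branching enzyme, had 212 in AGG-QC, 66.4 in AGG-OE and 94.6 in WT-URA. TMA10, a ribosome-associated protein, had 80.6 in AGG-QC, 15.7 in AGG-OE and 27.6 in WT-URA, with a log2 ratio of 2.36. MSN2 itself was near the median of all genes, with a log2 footprint ratio of 0.29. Summed over the 21 members listed in all strains, the stress list took 10017 FPM in AGG-QC, 4840 in AGG-OE, 6075 in WT-URA, 1877 in WT and 2094 in ACA-K. The 3 plasmid strains were thus all above the strains without plasmid, and AGG-QC was the highest of them.

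In some neighbouring lists a few members passed 2-fold in the higher direction (2.25% over all genes). HXK1, a hexokinase isoform, had 936 FPM in AGG-QC and 243 in AGG-OE (log2 1.94), and TDH1, a minor glyceraldehyde phosphate dehydrogenase, had 2470 in AGG-QC and 1135 in AGG-OE (log2 1.12). These were the only 2 of 17 glycolysis genes past 2-fold, and the list's median was -0.01. In the heat shock list 3 of 23 genes passed 2-fold, HSP42 at 1.43, SSA4 at 1.38 and HSP26 at 1.23, while the ribosome-bound chaperone SSB1 stood at -0.92. Only uniquely mapped reads were kept, and the middle stretch of SSB1 held 5 footprints in AGG-QC and 13 in AGG-OE. The SSB1 value thus rests on the rest of the gene and is uncertain. HAP4, the activator of respiratory genes, was at 1.25 and was the only gene of 35 in the respiration and ATP synthase list past 2-fold, a share near that of all genes. In mRNA 32 of these 35 genes lay above the all-gene median, with a list median of 0.27, and in footprints 23 did, with a list median of 0.23.

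Genes of nitrogen uptake and use were divided. GAP1, the general amino acid permease, had 6359 footprints in AGG-QC and 2467 in AGG-OE, or 1064 FPM in AGG-QC and 272 FPM in AGG-OE (log2 1.97, interval 1.90 to 2.03), with 464 in WT-URA, 13.7 in WT and 17.8 in ACA-K. AGP1, another broad amino acid permease, had 616 FPM in AGG-QC and 188 in AGG-OE. MEP3, an ammonium permease, had 69.9 in AGG-QC and 21.4 in AGG-OE. With MEP2 these were the 4 of 14 genes compared of the permease list past 2-fold in the higher direction (2.25% over all genes), and the median was 0.38 with the lowest member, HIP1, at -0.35.

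In the list of nitrogen assimilation, 4 of 17 genes were 2-fold higher in footprints and 0 lower (2.25% and 0.17% over all genes). Beside DUR3 these were DUR1,2 (listed here as DUR12), the urea amidolyase, at 1.92, the glutamate dehydrogenase GDH1 at 1.41 and the activator GAT1 at 1.19. GDH1 had 2342 FPM in AGG-QC, 883 in AGG-OE and 1609 in WT-URA. GDH2, the dehydrogenase that runs in the other direction, was at -0.52. The list's median was 0.21, close to the 0.18 of all genes.

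Arginine metabolism is the pathway named by the tRNA's own amino acid. Of 10 genes of arginine synthesis, all were listed in both strains and 6 had enough footprints to be compared, and 1 of the 6 was 2-fold lower (0.17% over all genes). The median log2 ratio of the 6 was -0.59 in footprints, the lowest of the 43 lists, and -0.38 in mRNA. That rank rested on the minimum. With none, the median of all 10 genes was -0.45 in footprints. Lower medians then included methionine and sulfate assimilation at -0.68 and ribosome biogenesis at -0.52. CPA1, of the arginine-specific carbamoyl phosphate synthetase, had 134 footprints in AGG-QC and 476 in AGG-OE, or 22.4 FPM in AGG-QC and 52.5 FPM in AGG-OE (log2 -1.23, interval -1.52 to -0.95). ARG1 stood at -0.73, ARG5,6 (listed as ARG56) at -0.74 and ARG7 at -0.43, and ARG4 was on the other side at 0.24. ARG3 had 107 footprints in AGG-QC and 382 in AGG-OE, which left it under the minimum, with a log2 ratio of -1.24 (interval -1.56 to -0.92). ARG2, ARG8 and ORT1 were under the minimum too, at -0.08, -0.38 and -0.05.

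CPA1 differed from its pathway in footprints per mRNA. Its mRNA was 103 MPM in AGG-QC and 134 in AGG-OE (log2 -0.38), close to the other members, so that its ratio of footprints per mRNA was -0.85, against the 0.10 of all genes. CPA1 mRNA carries an upstream reading frame known as the arginine attenuator peptide, which stalls ribosomes when arginine is plentiful. The footprint ratio was below 1 along the whole gene, at -1.50, -0.93 and -0.93 in its first, middle and last stretch of equal length. These rested on 63, 36 and 35 footprints in AGG-QC and on 271, 104 and 101 in AGG-OE. Footprints over mRNA for CPA1 were 0.217 in AGG-QC, 0.391 in AGG-OE, 0.242 in WT-URA, 0.300 in WT and 0.376 in ACA-K, which puts WT-URA near AGG-QC.

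The enzymes of arginine breakdown went the other way. CAR1, arginase, had 587 FPM in AGG-QC, 210 in AGG-OE and 362 in WT-URA (log2 1.48, interval 1.40 to 1.56, AGG-QC over AGG-OE). CAR2, ornithine transaminase, had 487 in AGG-QC, 241 in AGG-OE and 354 in WT-URA (log2 1.01). These were the 2 of 5 genes compared of the list past 2-fold (2.25% over all genes), and the median was 0.47 in footprints and 0.45 in mRNA. PUT1, proline oxidase, had 179 footprints in AGG-QC and 69 in AGG-OE and was not compared (log2 1.98). The regulators of the list did not share this direction. ARG81 and UME6 were at 0.19 and 0.07, and under the minimum ARG82 was at 0.40 and ARG80 at -0.64 (interval -1.16 to -0.14). In the list of arginine and lysine permeases, CAN1, the arginine permease, was the highest of the 5 genes compared, with 256 FPM in AGG-QC and 165 in AGG-OE, a log2 ratio of 0.64. The other 4 lay below the all-gene median, and the list's median was -0.04.

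Most genes of a mixed list for charging arginine tRNAs and for modifying tRNAs were lower in AGG-QC in mRNA, by less than 2-fold. YDR341C, the cytoplasmic arginyl-tRNA synthetase, had 497 FPM in AGG-QC, 609 in AGG-OE and 524 in WT-URA (log2 -0.29), and its mRNA ratio was -0.44. The list also holds the Elongator subunits and other genes of tRNA modification, not all of which act on arginine tRNAs. Of its 15 genes compared, 0 passed 2-fold in footprints or mRNA. Below the all-gene median lay 13 of the 15 in footprints and 14 in mRNA. Their median was -0.16 in footprints and -0.37 in mRNA, and 0.26 in footprints per mRNA, the highest of the 43 lists. ELP2, an Elongator subunit, had the highest ratio of footprints per mRNA among them at 0.74, and ABP140, which holds a tRNA methyltransferase domain, was highest in footprints at 0.35. The 21 aminoacyl-tRNA synthetase genes had a median of -0.22, and 0 of 21 lay above the all-gene median.

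GCN4 differed in footprints and not in mRNA. It had 287 footprints in AGG-QC and 855 in AGG-OE, or 48.0 FPM in AGG-QC and 94.4 FPM in AGG-OE (log2 -0.97, interval -1.17 to -0.78), with 98.3 in WT-URA, 114 in WT and 98.2 in ACA-K. Its mRNA signal was 1122 MPM in AGG-QC and 1146 in AGG-OE, a log2 ratio of -0.03, and lay between 1122 and 1274 in all 5 strains. Footprints over mRNA were 0.0428 in AGG-QC, against 0.0824 in AGG-OE, 0.0855 in WT-URA, 0.0891 in WT and 0.0818 in ACA-K. AGG-QC was thus the 1 strain that stood apart for GCN4, and its log2 footprint ratio was -0.94, -1.04 and -0.96 in the first, middle and last stretch of the gene. The log2 ratio of footprints per mRNA was -0.94. With 287 and 855 footprints GCN4 is a gene of moderate depth here, and the table holds no footprints on its upstream reading frames.

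The other genes of the Gcn4 control list, which are subunits and regulators of the initiation factors eIF2 and eIF2B, showed no such difference. GCN2, the kinase that senses uncharged tRNA, had 97.9 FPM in AGG-QC and 78.5 in AGG-OE (log2 0.32), and its mRNA ratio was -0.01. The 10 remaining members ran from -0.26 for GCN3 to -0.05 for GCD7. None of the 12 passed 2-fold.

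Most biosynthesis genes for other amino acids lay below the all-gene median in footprints. All 10 genes compared of leucine, isoleucine and valine synthesis lay below the all-gene median in footprints, with a median of -0.45. ILV2, the first enzyme of this branch, had 350 FPM in AGG-QC, 563 in AGG-OE and 382 in WT-URA (log2 -0.69). HIS4 stood at -0.53, and the median of the 7 histidine synthesis genes compared was -0.27. MET10, a sulfite reductase subunit, had 47.4 FPM in AGG-QC, 92.6 in AGG-OE and 51.5 in WT-URA, a log2 ratio of -0.97. It was the lowest of 11 genes compared for methionine and sulfate assimilation, whose median was -0.23 and whose highest member, SAM2, stood at 0.20. This list had 21 genes listed in both strains, and with no minimum their median was -0.68, the lowest of the 43 lists. The lists of lysine and aromatic amino acid synthesis had medians of -0.27 and -0.11. No gene compared of these 5 lists passed 2-fold, which leaves out members under the minimum.

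Genes for making ribosomes were lower in AGG-QC. Ribosome biogenesis factors process ribosomal RNA and assemble the subunits in the nucleolus. All 67 genes compared of 68 lay below the all-gene median in footprints and in mRNA, with medians of -0.51 and -0.77. In footprints 2 of 67 were 2-fold lower, and in mRNA 15 of 67 (0.17% and 0.848% over all genes). As in the whole set of genes low in mRNA, the footprints differed less than the mRNA, and the median log2 ratio of footprints per mRNA was 0.19.

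NSR1, a nucleolin-like protein, was the lowest of all genes in footprints, with 1297 in AGG-QC and 5222 in AGG-OE, or 217 FPM in AGG-QC and 576 FPM in AGG-OE (log2 -1.41, interval -1.50 to -1.32). WT-URA had 265 FPM of NSR1, close to AGG-QC, and WT had 950. NOG2, a GTPase of large subunit assembly, had 48.7 in AGG-QC, 125 in AGG-OE and 92.0 in WT-URA (log2 -1.37), and its gene overlaps the small nucleolar RNA gene SNR191. UTP20 had one of the highest ratios of footprints per mRNA, at 0.87, with a footprint ratio of -0.19 and an mRNA ratio of -1.05. WT-URA was nearer AGG-QC than AGG-OE in footprints for 61 of the 67 genes and in mRNA for 40 (2086 and 2058 of 4119 over all genes). The summed footprints of the 68 genes were 9018 FPM in AGG-QC, 13076 in AGG-OE, 9172 in WT-URA, 19349 in WT and 19049 in ACA-K, so that AGG-OE was the highest of the plasmid strains.

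Ribosomal protein genes were lower as well, but with WT-URA on the other side. Of the 72 large subunit genes compared 71 lay below the all-gene median in footprints, and of the 52 small subunit genes all did, with a median of -0.47 in each list. The mRNA medians were -0.37 and -0.39, and no gene of either list passed 2-fold. RPS0B had 834 FPM in AGG-QC, 1322 in AGG-OE and 1223 in WT-URA, and RPL8B had 738, 1182 and 1163 in the same strains. In footprints WT-URA was nearer AGG-OE for 70 of the 72 large and for 52 of the 52 small subunit genes (2033 of 4119 over all genes). In mRNA it was nearer AGG-OE for 51 of the large and 38 of the small subunit genes (2061 of 4119 over all genes). Summed over the 72 large subunit genes, footprints were 56037 FPM in AGG-QC, 77552 in AGG-OE, 74270 in WT-URA and 100598 in WT. RPL15B was the 1 gene above the median, at 0.28. Many of these genes have near-identical copies, and only uniquely mapped reads were kept, so values of single copies are uncertain.

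Translation factors followed with smaller differences. The elongation factor YEF3 had 7381 FPM in AGG-QC, 11645 in AGG-OE and 8781 in WT-URA (log2 -0.66), and the 10 elongation and termination genes had a median of -0.28. The poly(A)-binding protein PAB1 stood at -0.62 in footprints and -0.14 in mRNA, the lowest in footprints of 19 initiation genes, whose median was -0.14 and whose highest member, EAP1, was at 0.29. Proteasome genes lay on the other side, with 30 of 34 above the all-gene median in footprints and a list median of 0.29, and RPN4, the activator of proteasome genes, was highest among them at 0.70. In each of these lists 0 genes passed 2-fold.

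**Figure D3:**
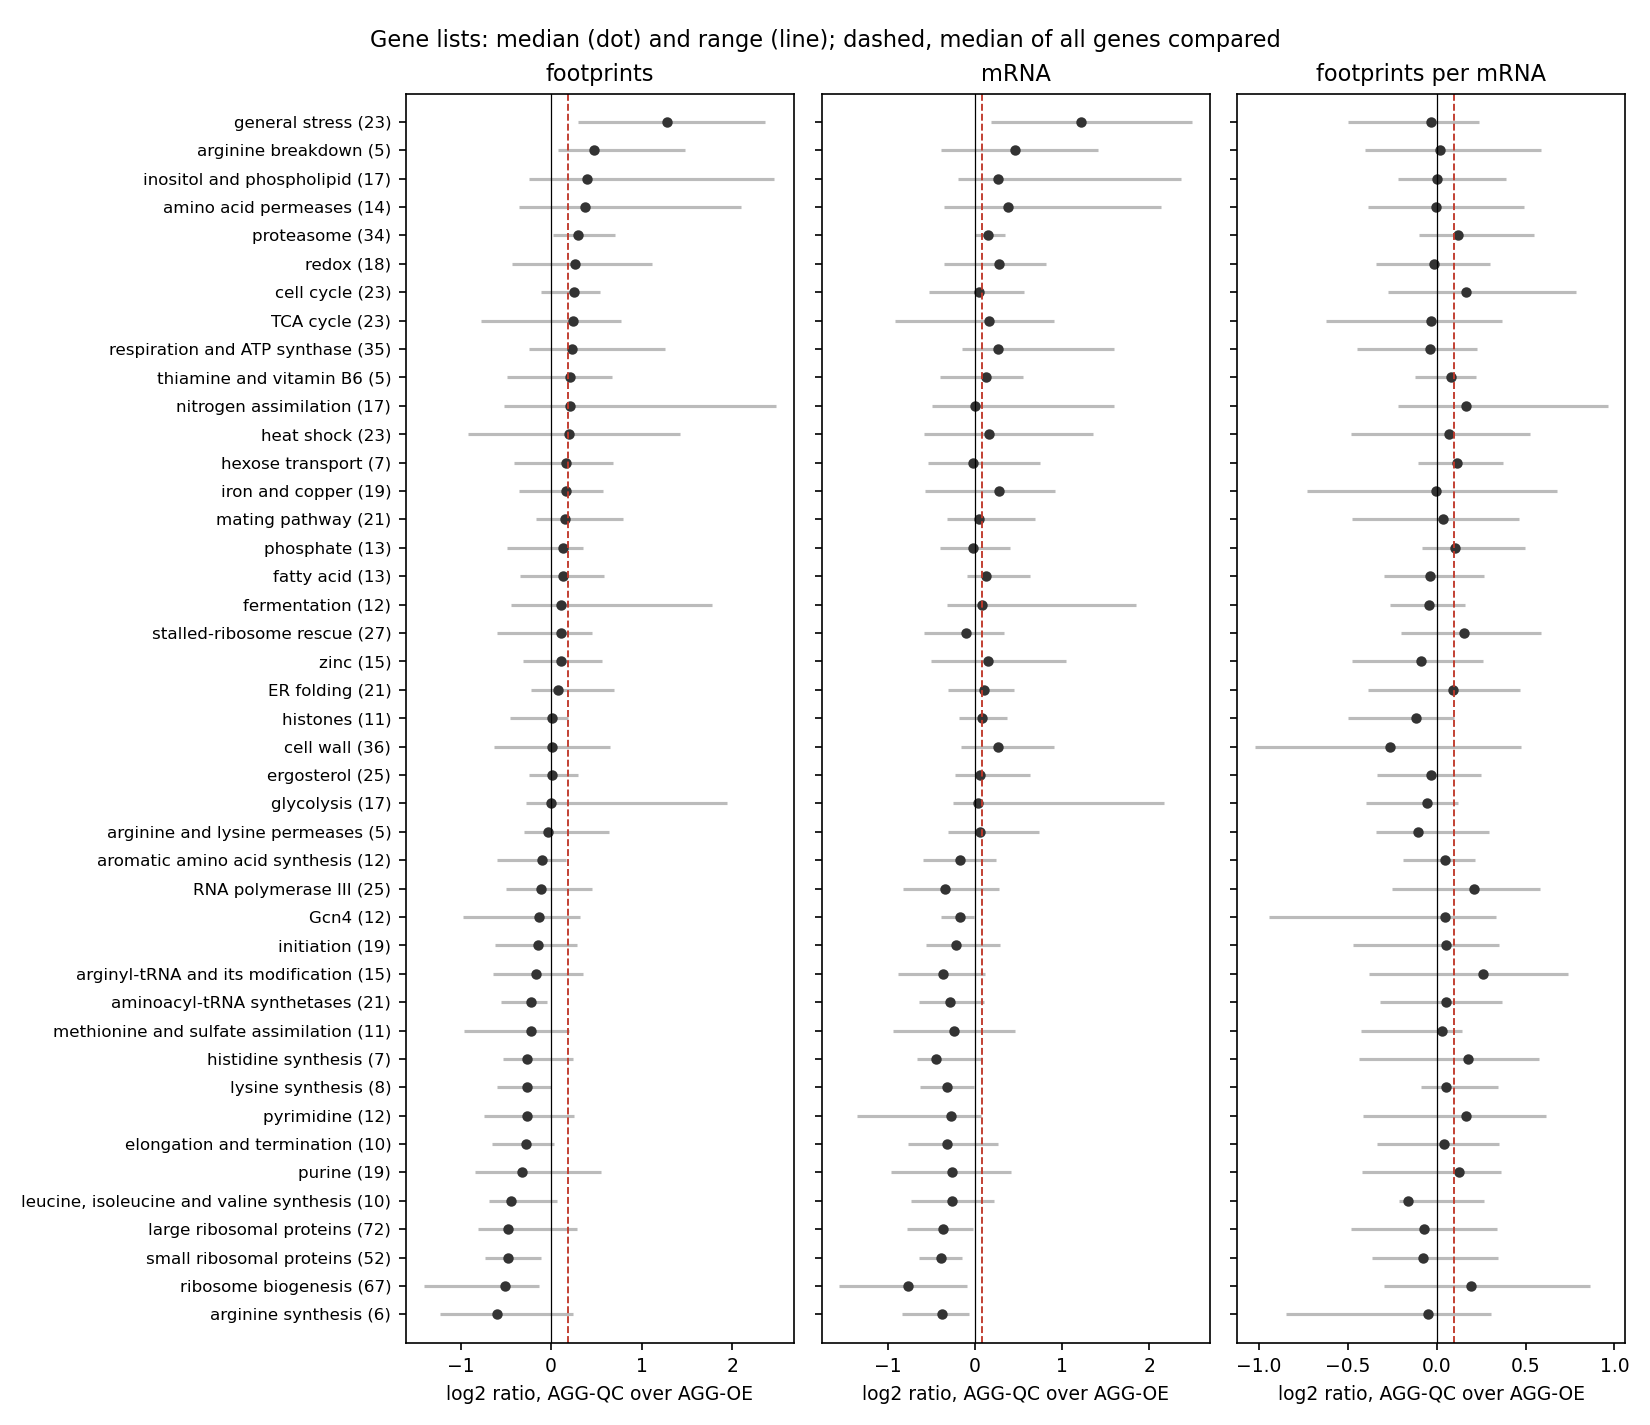
Log2 ratios of AGG-QC over AGG-OE in footprints (left), mRNA (middle) and footprints per mRNA (right) for 43 gene lists, sorted by their median in footprints, with the number of genes compared in parentheses; dots are medians, lines run from the lowest to the highest member, and the dashed line is the median of all 4126 genes. General stress stands at 1.28 in footprints, arginine synthesis at -0.59, ribosome biogenesis at -0.51, and cell wall at -0.26 in footprints per mRNA.

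Among the 10 genes lowest in footprints per mRNA were the cell wall proteins UTH1, SRL1 and TOS6, together with GCN4 and CPA1. UTH1, a cell wall protein of the SUN family, had 10242 footprints in AGG-QC and 23961 in AGG-OE, or 1714 FPM in AGG-QC and 2644 FPM in AGG-OE (log2 -0.63, interval -0.66 to -0.59). Its mRNA lay the other way, at 590 MPM in AGG-QC and 448 in AGG-OE, so that footprints per mRNA differed by -1.02. SRL1, a wall mannoprotein, had 527 FPM in AGG-QC and 547 in AGG-OE with mRNA at 431 MPM in AGG-QC and 230 MPM in AGG-OE, which gave -0.96. SUN4, a relative of UTH1, stood at -0.71 and the wall glycoprotein CCW14 at -0.68. The dubious reading frame YOR248W, at -1.07, is next to SRL1 by its systematic name, and NFG1, at -1.24, was the lowest of all genes with 219 footprints in AGG-QC and 330 in AGG-OE.

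The list of 36 cell wall genes compared had a median of -0.26 in footprints per mRNA, the lowest of the 43 lists (with no minimum, -0.23 against -0.24 for methionine and sulfate assimilation), with 31 of 36 below the all-gene median and only UTH1 past 2-fold (0.0727% over all genes). Its median was 0.26 in mRNA and 0.01 in footprints, where it turned to -0.17 with the median ratio set to 1. Footprints over mRNA for UTH1 were 2.90 in AGG-QC, 5.90 in AGG-OE, 5.90 in WT-URA, 4.04 in WT and 3.14 in ACA-K. For SRL1 they were 1.22 in AGG-QC, 2.38 in AGG-OE, 2.47 in WT-URA, 1.86 in WT and 1.23 in ACA-K. For CCW14 they were 2.79, 4.47, 4.82, 3.70 and 2.83 in the same order of strains. In these 3 genes the AGG-QC value lay beside that of ACA-K and the AGG-OE value beside that of WT-URA.

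At the upper end of footprints per mRNA, MMS1, a subunit of a ubiquitin ligase, stood at 1.11 and the uncharacterised YGR127W at 1.08. MMS1 had 213 footprints in AGG-QC and 253 in AGG-OE. Its log2 ratio of footprints was 0.09, 0.31 and 0.98 in the first, middle and last stretch. The intervals of these ratios overlapped, at -0.29 to 0.47, -0.26 to 0.88 and 0.40 to 1.56. YGR127W had 288 footprints in AGG-QC and 134 in AGG-OE. The next were KRE28, a kinetochore protein, at 0.98, DUR3 at 0.96, and the long genes ATG11 at 0.90, UTP20 at 0.87 and VPS15 at 0.84. DUR3 had 710 footprints in AGG-QC and UTP20 had 893, and the others had between 172 and 288, so that their values are less precise.

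Footprints per mRNA varied with gene length and with mRNA level. With the genes split into 5 equal bins by coding length, from the shortest to the longest, the median log2 ratio was -0.01, 0.09, 0.09, 0.11 and 0.20. In 5 bins by mRNA signal per codon, from the lowest to the highest, it was 0.19, 0.15, 0.11, 0.09 and -0.01. Across genes the ratio had an r of 0.28 with log length and of -0.28 with log mRNA level. In the longest bin it was the mRNA that departed from the rest, with a median of -0.04 against 0.14 in the shortest bin, while the footprint medians were 0.18 and 0.17. In the highest bin by mRNA level it was the footprints, at 0.04 against 0.24 in the lowest bin. These gradients have about the size of the differences between the medians of most gene lists, and their part in those differences was not tested.

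**Figure D4:**
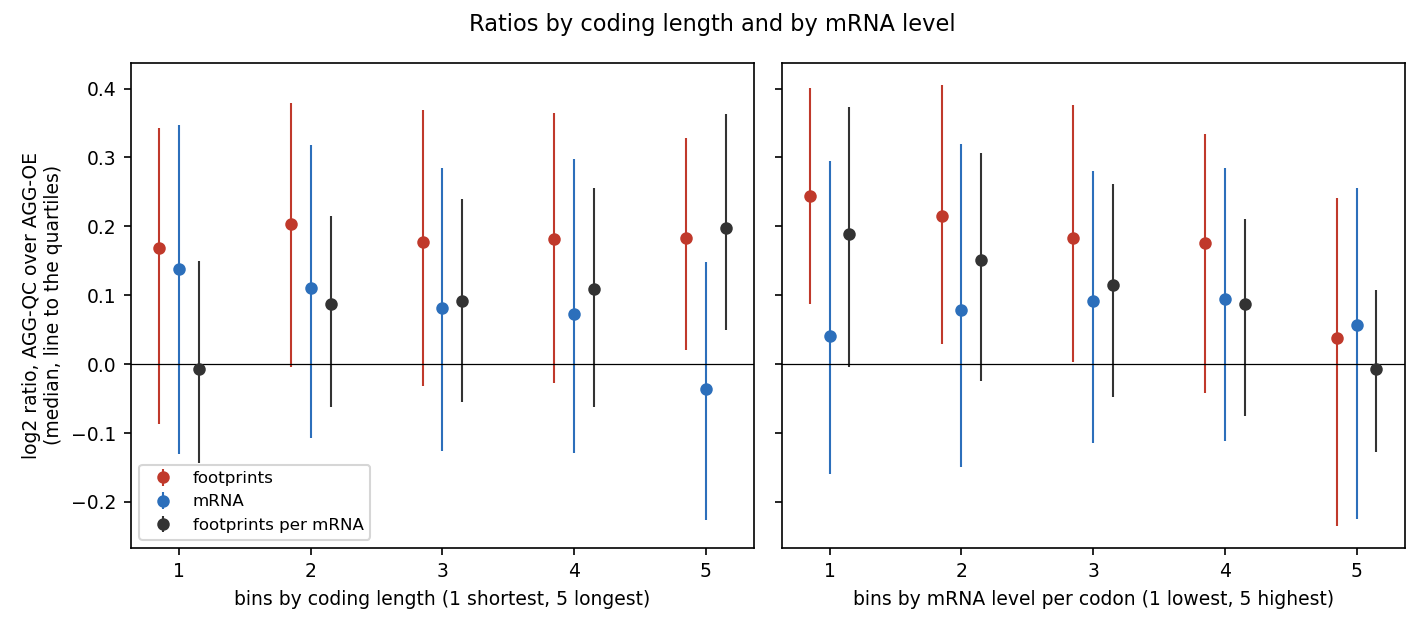
Median log2 ratios of AGG-QC over AGG-OE in footprints, mRNA and footprints per mRNA (lines run to the quartiles) for 5 equal bins of the 4126 genes by coding length (left) and by mRNA signal per codon (right). Footprints per mRNA run from -0.01 to 0.20 with length and from 0.19 to -0.01 with mRNA level.

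Along the reading frames the 2 strains were alike except at the ends. The share of footprints in the first 100 codons, pooled over the genes compared, was 41.5% in AGG-QC and 42.6% in AGG-OE, with 44.3% in WT-URA. Over 3403 genes of more than 200 codons with enough footprints in both regions, the share per gene had a median log2 ratio of -0.01, and 0 genes passed 2-fold. In genes of more than 200 codons, codon 2 took 2.27% of footprints in AGG-QC (interval 2.26% to 2.28%), 3.11% in AGG-OE (3.09% to 3.12%) and 2.86% in WT-URA. The stop codon took 0.0752% in AGG-QC, 0.125% in AGG-OE and 0.214% in WT-URA, and the last 10 sense codons 1.80%, 1.72% and 1.78% in the same order. With 1 library per strain, strain and library cannot be told apart in these shares.

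**Figure D5:**
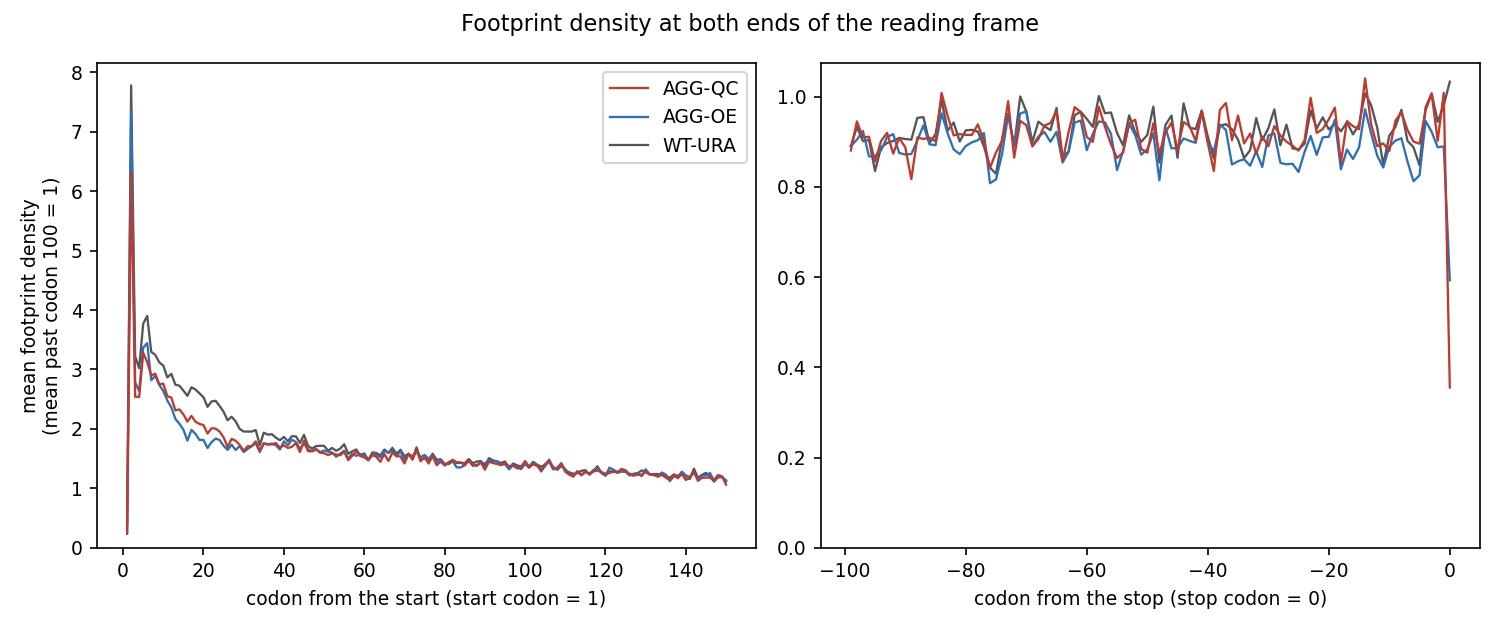
Mean footprint density over 1654 genes of 300 or more codons, each scaled to its own mean past codon 100 and capped at 10, by codon from the start (left) and from the stop (right), for AGG-QC, AGG-OE and WT-URA. At codon 20 the density is 2.06 in AGG-QC, 1.82 in AGG-OE and 2.53 in WT-URA, and at the stop codon it is 0.356, 0.593 and 1.03.

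The profiles averaged over genes also had AGG-QC lowest at codon 2 and at the stop codon, but WT-URA and AGG-OE changed order at codon 2, and at codon 20 AGG-QC was above AGG-OE. The density at codon 2, relative to each gene's own mean past codon 100 and capped at 10, was 6.30 in AGG-QC, 7.36 in AGG-OE and 7.78 in WT-URA. The cap limits each gene's part in these means, and the pooled shares above were not capped. By codon 50 it was 1.59 in AGG-QC, 1.64 in AGG-OE and 1.72 in WT-URA, and from there on the 3 curves ran together. On the codon before the stop it was 1.01 in AGG-QC, 0.890 in AGG-OE and 0.981 in WT-URA. The density at AGG and other arginine codons was not analysed here.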

How the data were processed

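Ribosome footprints and mRNA were compared between AGG-QC and AGG-OE, with 1 library per strain and assay. The authors aligned reads with Bowtie 1.0.0 to assembly R63, kept unique reads of 28 to 31 nucleotides with at most 2 mismatches, dropped genes with mRNA at under 50% of positions or without footprints, and deposited footprints as raw counts for each codon and gene. The mRNA sum per gene is deposited as a signal with no unit named, so it has no counting interval. The lengths in codons were deposited too. RefSeq's table for assembly R64 gave symbols and neighbours only.

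Each measure was scaled to its total over genes listed in both tables without URA3. Genes with at least 2 to the power of 7 footprints in both were compared, and called at 2-fold. Counts of footprints gave exact Clopper-Pearson 95% intervals of the ratio. Named genes were URA3, the 10 at each end of each measure, the arginine and Gcn4 lists, and the extremes of the other lists. Alternatives were other minimum counts, median, TMM and trimmed-total scaling, other folds, and sums past the first 100 codons (the first 25% in shorter genes). The genes, lists and rules were chosen with earlier results of these data known. The functions were tested on simulated data. Depth ran from 6011287 to 9127829 footprints. Python 3.11.15, numpy 2.4.6, pandas 2.3.3, scipy 1.17.1 and matplotlib 3.10.9 were used. The values of 1 gene of the arginine synthesis list are not reported here.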

Additional observations from a re-analysis of the deposited data

How the results depend on the processing

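The minimum of 2 to the power of 7 footprints was replaced by powers of 5 and 9 and by none. The number of genes 2-fold apart in footprints was 100, and 170 with the lower minimum, 43 with the higher and 219 with no minimum. It was 483 at 1.5-fold and 30 at 3-fold. In mRNA it was 132, and 60 with the higher minimum, 533 at 1.5-fold and 25 at 3-fold. In footprints per mRNA it was 5, and 23 with the lower minimum, 2 with the higher, 62 with no minimum, 8 with the median ratio set to 1, 20 past the first 100 codons, 139 at 1.5-fold and 0 at 3-fold. Footprints per mRNA past 2-fold thus depended on the minimum, the scaling and the codons counted. Of the values of single named genes, 203 of 840 moved by more than the width to 1 side of their counting interval (footprints) or by more than 0.25 (mRNA and footprints per mRNA) with the median ratio set to 1. With TMM scaling 200 of 840 moved by that much, and past the first 100 codons 60 of 558. The pooled share in the first 100 codons was lower in AGG-QC by 1.11 percentage points (a difference of -1.11), and the difference was -0.511 in genes longer than 200 codons and -1.23 with the higher minimum. TMM scaling, totals without the 10 top genes, and genes listed in all 5 strains kept every count of calls within 1.5 times, with 84, 96 and 93 genes in footprints. Every list median named for its size kept its side of 0 under median and TMM scaling, except that of the cell wall list in footprints. The median of arginine synthesis in footprints per mRNA was 0.10 with no minimum, against -0.05. For methionine and sulfate assimilation it was -0.24 with no minimum, against 0.03, and the footprint median was -0.68, against -0.23. The depth of AGG-QC limits genes under the minimum, such as ARG3 and PUT1, and differences between single libraries have no replicate check. Density at arginine positions was not run because codon sequences were not analysed here. TMM scaling and totals without the top genes were added for the gene lists after seeing the data. No paired analysis was possible because each strain has 1 library per assay.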
